A study of Rattus norvegicus with 27 samples.

Results

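The p53 genes examined here were 8 genes of the p53 pathway measured in the medial prefrontal cortex (mPFC) of rats, namely the regulators Mdm2 and Mdm4 and the target genes Cdkn1a, Bax, Bbc3, Ccng1, Sesn1 and Gadd45a. They were chosen by rat gene symbol, Mdm4 because it is named in the study and the others because they are standard members of the pathway, and all 8 were found among the 36865 rows of the count table. The study asked which genes of the mPFC vary with trait anxiety in male Wistar rats, an outbred strain, after a battery of repeated anxiety tests. One library was made from each of 27 rats in a resting state, and all 27 form a single group with no untreated or control group. The rats were adult, were picked from more than one cohort on their composite anxiety scores, the cohort of each rat not being used here, and their tissue was taken after the last behavioural test. The sample labels also carry the words "Learned helplessness" as the treatment of every rat and name startle and fear conditioning, which the methods describe for another strain. The anxiety scores were not used here, so no value below concerns anxiety. Each library is homogenised tissue, in which a change in the number of cells of a type and a change in RNA per cell cannot be told apart.

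The transcription factor p53 is kept low in unstressed cells by Mdm2, a ubiquitin ligase that marks it for degradation, and by Mdm4, a relative of Mdm2 that binds p53 and blocks its activity. When DNA is damaged, kinases such as Atm release p53 from both. It then switches on genes that stop the cell cycle (Cdkn1a, the cyclin-dependent kinase inhibitor p21), repair DNA or sense stress (Gadd45a), limit growth signalling and oxidative stress (Sesn1), permeabilise mitochondria in apoptosis (Bax and Bbc3, the latter encoding Puma) and feed back on p53 itself (Mdm2, and Ccng1, which encodes cyclin G1). In neurons that no longer divide the pathway is known mainly for its part in cell death and in the response to DNA damage.

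RefSeq start-site sequence (assembly GRCr8) was held for 6 of the 8 genes, and none was held for Bax and Bbc3. It is the sequence before 1 transcript start per gene, which need not be the outermost start of the annotated gene. That start lay at the gene's outer end in Ccng1 and Gadd45a, but inside the annotated gene by 112 bases in Cdkn1a, 966 in Mdm2, 41954 in Mdm4 and 71801 in Sesn1. The 250 bases before that transcript start of Cdkn1a, Ccng1, Sesn1 and Gadd45a are shown because each holds a p53 half-site, the motif of 10 bases that p53 binds in pairs, whose pattern reads the same on both strands. The capitals mark that half-site.
Cdkn1a (chr20:7150682-7150931, plus strand): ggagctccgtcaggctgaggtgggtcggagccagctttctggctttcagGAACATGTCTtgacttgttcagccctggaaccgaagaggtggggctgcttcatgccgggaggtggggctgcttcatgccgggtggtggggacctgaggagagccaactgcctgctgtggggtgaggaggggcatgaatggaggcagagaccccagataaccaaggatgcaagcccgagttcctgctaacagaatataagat
Ccng1 (chr10:25684877-25685126, minus strand): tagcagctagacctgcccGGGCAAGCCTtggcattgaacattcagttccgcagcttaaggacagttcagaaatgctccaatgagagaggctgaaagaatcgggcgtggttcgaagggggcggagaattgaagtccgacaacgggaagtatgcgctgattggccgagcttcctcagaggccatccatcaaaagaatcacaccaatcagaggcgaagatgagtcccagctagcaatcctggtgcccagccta
Sesn1 (chr20:46948469-46948718, plus strand): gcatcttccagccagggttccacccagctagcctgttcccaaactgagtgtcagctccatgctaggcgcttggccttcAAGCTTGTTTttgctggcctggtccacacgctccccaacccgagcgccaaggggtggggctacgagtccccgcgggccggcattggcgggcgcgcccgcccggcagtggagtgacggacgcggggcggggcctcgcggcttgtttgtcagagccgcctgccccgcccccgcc
Gadd45a (chr4:97486800-97487049, minus strand): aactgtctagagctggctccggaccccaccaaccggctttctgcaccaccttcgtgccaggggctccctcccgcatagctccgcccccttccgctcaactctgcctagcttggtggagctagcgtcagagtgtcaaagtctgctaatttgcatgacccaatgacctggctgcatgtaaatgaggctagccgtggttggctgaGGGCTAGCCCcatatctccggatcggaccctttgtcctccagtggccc
The half-site began 201 bases before the start in Cdkn1a, 232 in Ccng1, 172 in Sesn1 and 48 in Gadd45a. It was found in the same 250 bases of 2221 of 33469 rat promoters (6.64%), and in neither of the windows held for Mdm2 and Mdm4, whose outermost starts were not searched. A full p53 site is a pair of half-sites, 20 bases without a spacer. The closest stretch in Cdkn1a was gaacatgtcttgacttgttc and the closest in Ccng1 was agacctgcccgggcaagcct, each with 1 letter off the pattern, a match that 0.0598% of the promoters held. In Sesn1 the closest stretch was 3 letters off, and 5.22% of all promoters held one at most 3 letters off. In Gadd45a it was 4 letters off, and 25.7% held one at most 4 letters off. In Mdm4 it was 5 letters off and in Mdm2 6. A match of letters does not show that p53 binds there, and sites outside these windows were not searched.

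Depth differed with the library number. The 16 libraries numbered up to 31 held 4907255 to 8568317 counted reads (median 7619609.5) and the 11 numbered from 32 held 9404220 to 12771309 (median 10948982). What separates the numbers is not stated in the labels, so results are given in both sets as well as together. Libraries 12 and 20 had the highest counts of the ribosomal RNA gene Rn18s, and results are also given without them. Markers of neurons (Snap25, 24624 ± 2382 normalized counts, SD, n = 27, and Slc17a7, 11183 ± 1417) were present in every library, as were those of oligodendrocytes, astrocytes, microglia and vessels. A normalized count is the count divided by the library's size factor. Counts depend on transcript length, so levels are compared between rats and not between genes.

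Mdm4 was the most variable of the 8 genes, whereas Mdm2, which encodes a related protein, was among the steadiest. Mdm4 (gene ID 304798) ranged from 37.9 normalized counts in library 32 through a median of 90.7 to 203 in library 13, a 5.37-fold range with a mean of 95.2 ± 43.7 (SD, n = 27). Its raw counts ran from 37 to 192. The libraries with the highest values were 13, 12, 15 and 20, and the lowest were 32 and 43. Mdm2 (gene ID 314856) ranged only from 338 in library 32 through 377 to 424 in library 12, a 1.25-fold range with a mean of 378 ± 22.4. On the log2 scale the SD between rats was 0.64 for Mdm4 and 0.09 for Mdm2, against a median of 0.19 over the 11730 genes whose mean count was 10 or more. These values placed Mdm4 at the 96.5th percentile of spread and Mdm2 at the 3.44th. Low genes vary more because fewer reads are counted. Set against the trend of genes of like level, the biological coefficient of variation of Mdm4 was 2.10 times the trend (97.6th percentile) and that of Mdm2 0.42 times (2.44th percentile). Counting noise was 5.10% of the variance of Mdm4 and 77.3% of that of Mdm2.

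**Figure D1:**
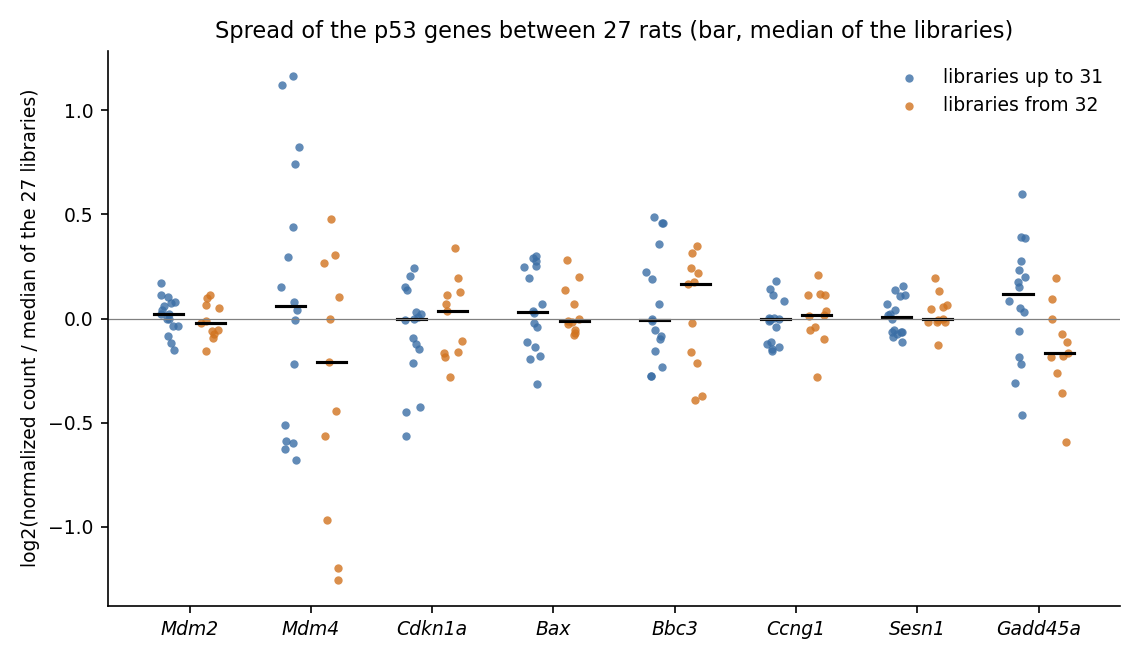
Log2 of the normalized count of each p53 gene over its own median, 1 point per rat, with the 16 libraries up to 31 in blue, the 11 from 32 in orange and a bar at the median of each set. Mdm4 spans 5.37-fold, whereas Mdm2 and Sesn1 span 1.25-fold each.

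The growth-arrest and stress genes were less variable than Mdm4. Cdkn1a (gene ID 114851) ranged from 43.4 normalized counts in library 13 through 64.3 to 81.4 in library 32 (mean 62.9 ± 9.19, SD, n = 27), so that the rat with the highest Mdm4 had the lowest Cdkn1a and the rat with the lowest Mdm4 the highest Cdkn1a. Those were 2 rats of 27, and across all of them the rank correlation of the pair was near zero (rho = -0.0037). Ccng1 (gene ID 25405) ranged from 2129 in library 51 through 2584 to 2986 in library 54 (mean 2586 ± 204). Gadd45a (gene ID 25112) ranged from 75.6 in library 47 through 114 to 173 in library 3, a 2.28-fold range (mean 115 ± 22.4). Sesn1 (gene ID 294518) was as steady as Mdm2. It ranged from 628 in library 35 through 686 to 785 in library 53, a 1.25-fold range with a mean of 695 ± 41.8 and an SD of 0.09 on the log2 scale (3.60th percentile of spread).

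The apoptosis genes lay between these extremes. Bax (gene ID 24887), the pore-forming member of the Bcl-2 family, ranged from 288 normalized counts in library 12 through 359 to 441 in library 19 (mean 371 ± 43.3, SD, n = 27). Library 20 held the next-lowest Bax, so the lowest values of Bax fell in the libraries with the most Rn18s. Without those libraries the rank correlation of Bax with Rn18s was positive (rho = 0.496), against 0.187 in all 27. Bbc3 (gene ID 317673), which encodes an activator of Bax, ranged from 45.0 in library 35 through 59.0 to 82.8 in library 15 (mean 62.1 ± 11.4). Counting noise was 20.3% of the variance of Bax and 49.4% of that of Bbc3. A Bax pseudogene, Bax-ps1, was listed at 0 in every library.

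A chi-square test against Poisson counting, adjusted over all 11730 genes, found spread beyond counting in 6 of the 8 genes, against 89.8% of all genes. The spread of Mdm2 (adjusted p = 0.107) and of Cdkn1a (adjusted p = 0.0826) did not pass. The adjusted p-value was 8.5e-97 for Mdm4, 5.9e-75 for Ccng1, 5.0e-14 for Bax, 3.8e-11 for Gadd45a, 3.9e-05 for Sesn1 and 7.5e-04 for Bbc3. At this depth, therefore, differences between rats in Mdm2 and Cdkn1a were not detectable beyond counting error.

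**Figure D2:**
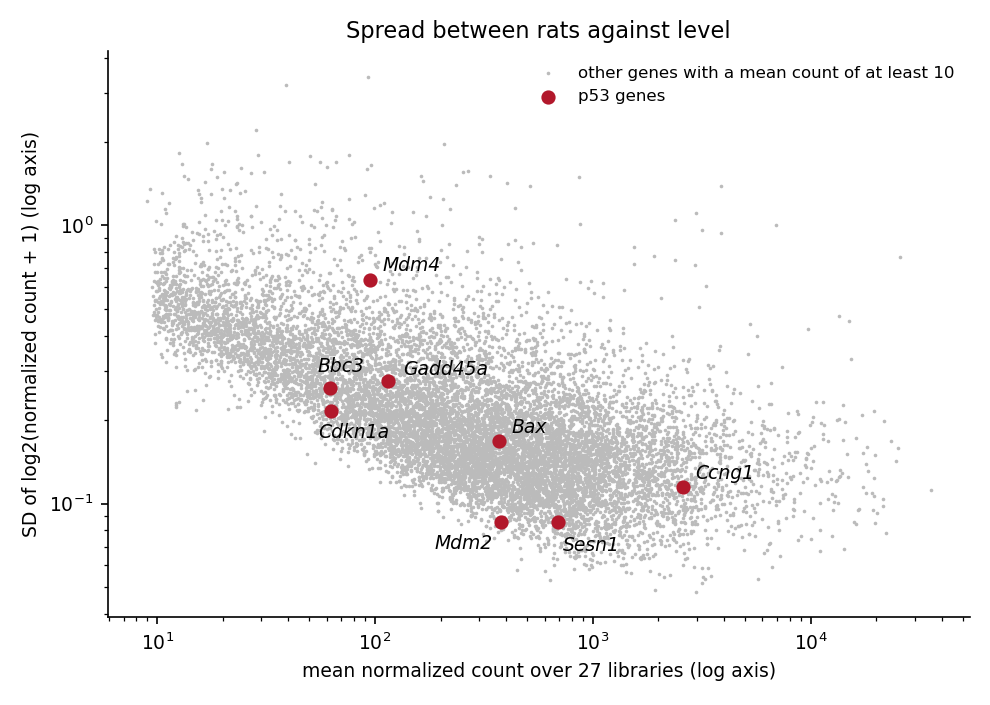
SD between the 27 rats of log2(normalized count + 1) against the mean normalized count, both on log axes, with the p53 genes in red and the other genes (mean count 10 or more) in grey. Mdm4, at an SD of 0.64, lies above most genes of its level, and Mdm2 and Sesn1, at 0.09 each, lie along the lower edge.

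The 8 genes did not rise and fall together across the 27 rats. Over the 28 pairs, the median Spearman's rho, taken on log2(normalized count + 1), was 0.0031. It ran from -0.327 to 0.430 and was positive in 14. No pair reached 0.5 in either direction. The same measure taken between one of these genes and the 9845 genes averaging 50 or more normalized counts passed 0.5 in size for 10.6% of genes with Mdm4, 16.9% with Bax, 9.98% with Gadd45a and 4.60% with Ccng1, and for 0.427% to 1.66% with the other 4. With the difference between the depth sets removed, the median over the pairs was 0.010.

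The highest correlation was that of Mdm2 and Sesn1 (rho = 0.430, permutation p = 0.0260; Pearson's r = 0.380, permutation p = 0.0506; all permutation tests were two-sided). It was 0.444 in the libraries up to 31 and 0.364 in those from 32, and r was 0.375 with the 2 rats most distant in Mdm2 left out. It was the only one of the 28 with a rank p-value under 0.05 in the pooled libraries. With the depth sets removed there were also Ccng1 and Gadd45a (rho = 0.432, permutation p = 0.0251, against 0.286 and permutation p = 0.147 pooled) and Bax and Gadd45a (rho = 0.389, permutation p = 0.0463). The p-values of the 28 pairs are unadjusted. In the fits over all genes neither Mdm2 nor Sesn1 passed with the other (adjusted p = 0.516 and 0.722, edgeR quasi-likelihood test). The paralogs Mdm2 and Mdm4 had rho = 0.190 (permutation p = 0.340) and r = 0.297 (permutation p = 0.131, 95% interval from -0.093 to 0.609), and r was 0.036 with the 2 rats most distant in Mdm2 left out and 0.248 with the 2 most distant in Mdm4 left out. The interval of the paralogs thus holds both zero and moderate positive values. Cdkn1a and Ccng1, the pair with the closest full p53 site before their start, had rho = 0.0098 (permutation p = 0.962) and r = -0.048 (permutation p = 0.810). With the depth sets removed that rho was -0.068, so its sign turned.

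**Figure D3:**
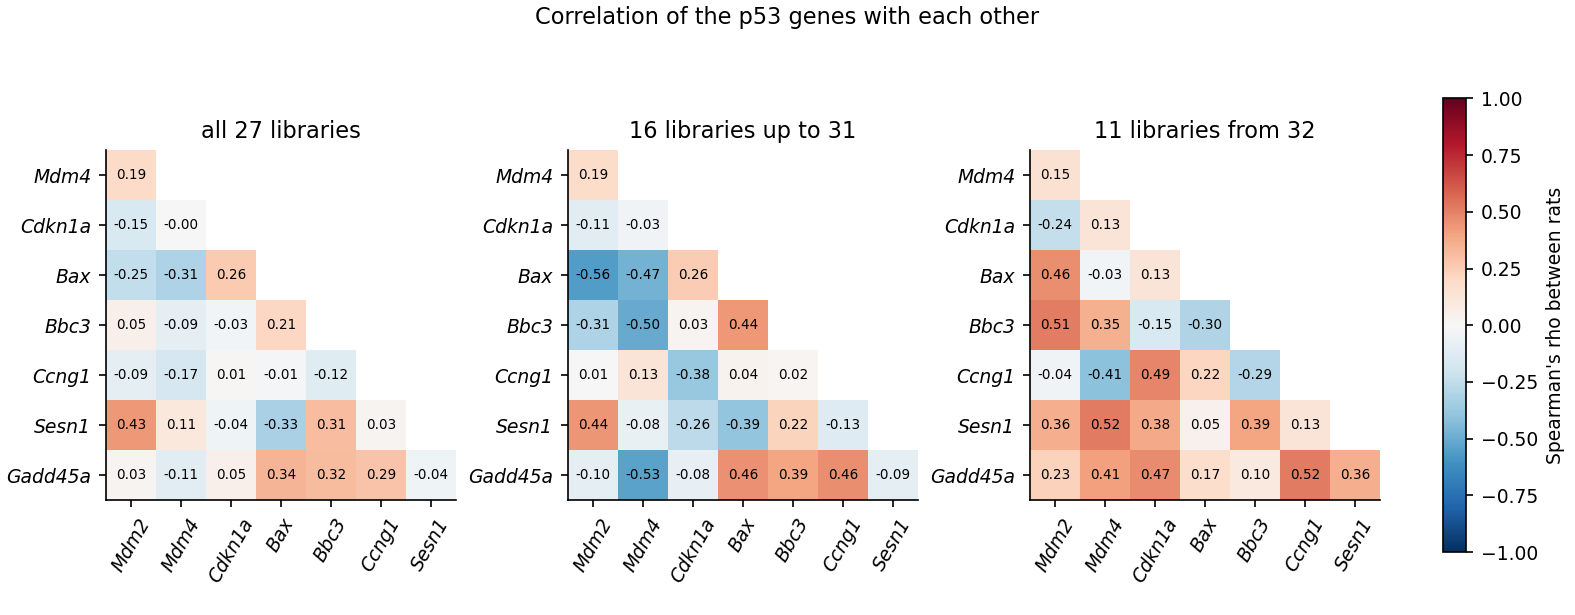
Spearman's rho between rats for the 28 pairs of p53 genes, in all 27 libraries (left), the 16 up to 31 (middle) and the 11 from 32 (right), from blue (negative) to red (positive). No cell passes 0.5 in size in the left panel, and Mdm2 with Bax is -0.56 in the middle panel and 0.46 in the right one.

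Mdm4 and Bax, the inhibitor of p53 and a target, had a negative correlation by both measures, with an unadjusted p-value under 0.05 for r alone. Their rho was -0.309 (permutation p = 0.117) and r was -0.402 (permutation p = 0.0383), with -0.474 in the libraries up to 31 and -0.027 in those from 32 for rho. With the 2 rats most distant in Mdm4 left out, r was -0.528, and with the 2 most distant in Bax left out it was -0.257. Without libraries 12 and 20 rho was -0.145 (permutation p = 0.488). Of the 56 ordered pairs tested in the fits over all genes, Mdm4 in the fit on Bax was the only one that passed, falling by 0.29 on the log2 scale per SD of Bax (SE 0.11, adjusted p = 0.0496, edgeR quasi-likelihood test). The call was lost without library 12 (adjusted p = 0.234) and without library 20 (adjusted p = 0.0919), and with all 27 libraries it was lost under median-of-ratios size factors (adjusted p = 0.0515) and with no filter on low counts (adjusted p = 0.0614). In the reverse fit Bax did not pass with Mdm4 (adjusted p = 0.196). Bax and Gadd45a had rho = 0.336 (permutation p = 0.0859) and r = 0.358 (permutation p = 0.0662), with r = 0.179 after the 2 rats most distant in Bax were left out. Bax and Sesn1 had rho = -0.327 (permutation p = 0.0971) and r = -0.341 (permutation p = 0.0826), or r = -0.427 on the same omission.

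Signs differed between the depth sets in 18 of the 28 pairs. With a pooled median rho of 0.0031, signs can differ by chance in many pairs, so this count is not read as a result about them. Mdm2 and Bax had rho = -0.562 (permutation p = 0.0254) in the 16 libraries up to 31 and 0.464 (permutation p = 0.152) in the 11 from 32, for a pooled rho of -0.249 (permutation p = 0.207) and r of -0.345 (permutation p = 0.0769). Mdm4 and Gadd45a had rho = -0.532 (permutation p = 0.0363) and 0.409 (permutation p = 0.213) in the same sets, for a pooled rho of -0.112 (permutation p = 0.577) and r of -0.123 (permutation p = 0.542). With the 2 rats most distant in the gene named first left out, the pooled r was -0.280 and -0.321. These pairs were picked after their values were seen, and the difference between the sets was not tested.

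Each gene was then used in turn as the covariate of a fit over all genes, to ask which genes followed it. Mdm4 was followed by 1128 of 11920 genes (9.46%, edgeR quasi-likelihood test, adjusted p under 0.05), of which 783 rose and 345 fell with it. Without library 12 the count was 615 (484 up and 131 down) and without libraries 12 and 20 it was 392 (351 up and 41 down). Bax was followed by 2498 genes (20.9%), 1043 up and 1455 down. The count for Bax was 1510 without library 12 (722 up and 788 down) and 2101 without library 20. Without libraries 12 and 20 it was 1002 (498 up and 504 down). Gadd45a was followed by 1586 genes (13.3%), and by 570 once the depth set was a term of the fit. Ccng1 was followed by 13 genes (0.108%) with edgeR, by 172 with DESeq2 and by 264 with the depth set as a term. Mdm2, Cdkn1a, Bbc3 and Sesn1 were each followed by 0 genes with edgeR (0% in each fit) and 0 with DESeq2. At an unadjusted p under 0.05 edgeR counted 1214 genes for Mdm2, 407 for Cdkn1a, 619 for Bbc3 and 870 for Sesn1. All these fits use the same rats and are not independent of each other.

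By rank, the gene most like Mdm4 was Atm, the kinase that signals DNA double-strand breaks to p53 and to Mdm4 itself. Among 9845 genes Atm had the highest rank correlation with Mdm4 (rho = 0.927, r = 0.862), and rho was 0.915 in the libraries up to 31, 0.945 in those from 32 and 0.910 without libraries 12 and 20. Atm ranged from 88.7 normalized counts in library 3 through 195 to 287 in library 13, the library with the highest Mdm4. In the fit on Mdm4, Atm rose by 0.32 on the log2 scale per SD of Mdm4 (SE 0.034, adjusted p = 9.7e-08, edgeR quasi-likelihood test). The next genes were Kcnq3, a potassium channel subunit of the M-current (rho = 0.915, r = 0.902), and Cacna1e, a subunit of the R-type calcium channel (rho = 0.906, r = 0.878), both with a higher r than Atm. Kcnq3 ranged from 50.5 to 475 normalized counts and Cacna1e from 32.1 to 541, wider than Mdm4. Atm did not mark the other p53 genes in the same way: its rho with them ran from -0.462 for Bax to 0.235 for Mdm2. In RefSeq the span of Mdm4 overlaps Lrrn2 and Pik3c2b. Strand was not given in the sources used here, so reads of overlapping parts could be shared. Mdm4 had rho = -0.168 (permutation p = 0.396) and r = -0.196 (permutation p = 0.326) with Lrrn2 and rho = 0.052 (permutation p = 0.799) and r = 0.149 (permutation p = 0.466) with Pik3c2b.

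**Figure D4:**
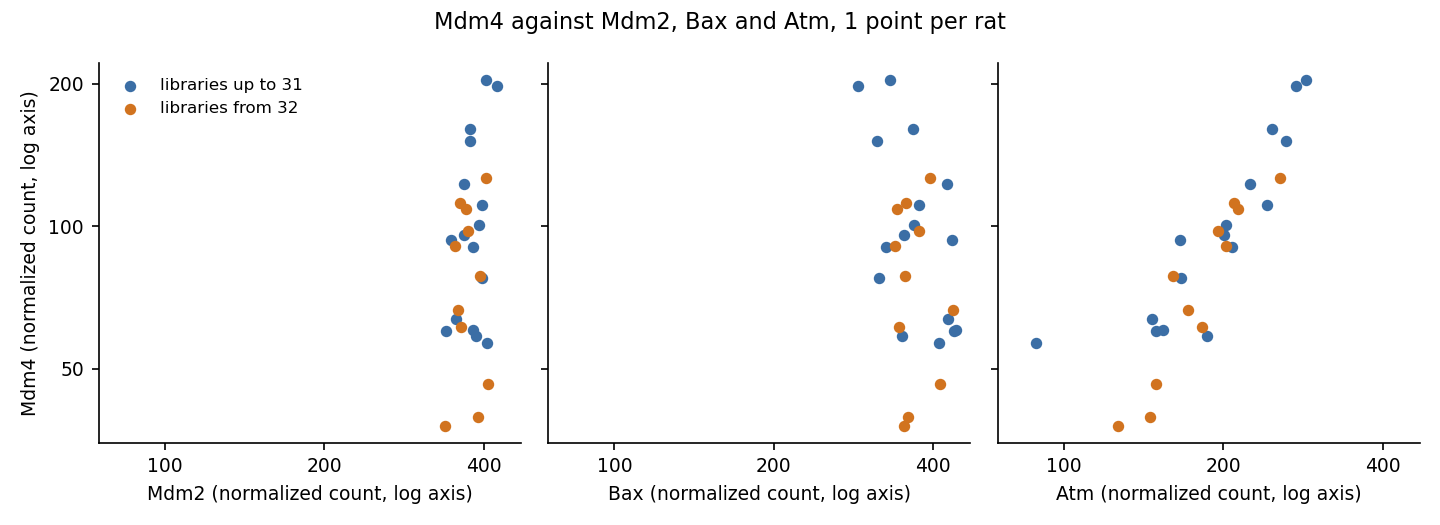
Normalized count of Mdm4 against those of Mdm2 (left), Bax (middle) and Atm (right) on log axes of the same width, 1 point per rat, with the libraries up to 31 in blue and those from 32 in orange. Mdm4 rises with Atm in both sets (rho = 0.927 over all rats), while the points of Mdm2 form a narrow band (rho = 0.190).

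The nearest genes of the others came from many functions. Among the 3 genes nearest to Bax were H2aj (rho = 0.805), a histone, and Ccdc28b (0.792). Gadd45a was nearest to Plagl2 (0.753), a zinc-finger transcription factor, Rpl9 (0.745), a protein of the large ribosomal subunit, and Top1 (0.745), a DNA topoisomerase. Ccng1 was nearest to Hsp90aa1 (0.769), a heat-shock chaperone, Apoo (0.765), a mitochondrial protein, and Celf4 (0.755), an RNA-binding protein of neurons. For the 4 genes that 0 genes followed, the nearest were Drd1, the D1 dopamine receptor (0.684), Tcp11l2 (0.668) and Adh5 (0.660) for Mdm2, Tmem115 (0.637), the co-chaperone Stip1 (0.632) and Nup62, a protein of the nuclear pore (0.611), for Cdkn1a, the protease Senp8 (0.700), the proteoglycan Gpc4 (0.673) and Parp2, an enzyme of DNA repair (0.645), for Bbc3, and Elmod1 (0.675), Mto1 (0.654) and Zbtb2 (0.649) for Sesn1. The highest of 9845 correlations over 27 rats is large by selection alone, so these are descriptions.

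Of a wider list of 26 regulators of p53, those with the most counted reads, which depend on transcript length and do not order expression, were Rpl5 (2228 ± 245 normalized counts, SD, n = 27), Rpl11 (1808 ± 380), ribosomal proteins that bind Mdm2, and the deubiquitinase Usp7 (1349 ± 147). Of 38 further targets, those with the most counted reads were the kinase Plk2 (2810 ± 235), the RNA-binding protein Zmat3 (1337 ± 97.6) and the ubiquitin ligase Trim32 (1175 ± 103). Of these lists 17 regulators and 33 targets had a mean count of at least 10, and 7 regulators and 3 targets were listed at 0 in every library. Some of the latter, such as Atr and Ep300, are genes that most cells use, so a 0 here is not read as absence of expression.

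These wider lists did not follow any of the 8 genes as a block. With Mdm4, 2 of the 17 regulators rose (Atm, and Usp7 by 0.11 per SD on the log2 scale) and 0 fell, and 3 of the 33 targets rose while 1 fell, against 9.46% of all genes. Among the targets that rose were Sesn3, a relative of Sesn1 (0.44 per SD, adjusted p = 5.0e-06), and the ribonucleotide reductase subunit Rrm2b (0.24, adjusted p = 0.0255), and Ninj1 fell by 0.09 (adjusted p = 0.0139, edgeR quasi-likelihood test). Without library 20 the targets counted 1 up and 2 down, and with the depth set as a term 2 up and 2 down. The median slope over the targets was 0.0096 and over all genes -0.0032.

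With Bax, 2 regulators rose, Rpl11 and Rpl5, and Atm fell, while 4 targets rose and 6 fell, against 20.9% of all genes. Trim32 fell by 0.09 per SD of Bax (adjusted p = 0.0034), Sesn3 by 0.30 (adjusted p = 0.0087) and Zmat3 by 0.07 (adjusted p = 0.0094), and Phlda3, an inhibitor of Akt signalling, rose by 0.19 (adjusted p = 0.0124, edgeR quasi-likelihood test). The further targets of p53 that passed with Bax went in both directions. Without libraries 12 and 20 these counts were 0 regulators, and 3 targets up and 1 down, and without library 12 they were 1 regulator up, and 3 targets up and 4 down. Without library 20, 2 regulators rose and 0 fell, and 2 targets rose and 6 fell.

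With Gadd45a, 4 regulators rose and 1 fell, and 7 targets rose and 0 fell, against 13.3% of all genes. Rpl5 rose by 0.11 per SD (adjusted p = 0.0018), Rpl11 by 0.19 (adjusted p = 0.0022) and Rchy1, a ubiquitin ligase for p53, by 0.08 (adjusted p = 0.0162), while Numb fell by 0.13 (adjusted p = 0.0050). Of the targets, Phlda3 rose by 0.20 (adjusted p = 0.0066), the paralog Gadd45b by 0.16 (adjusted p = 0.0176), the ribosomal protein Rps27l by 0.15 (adjusted p = 0.0199) and the survival gene Bcl2l1 by 0.09 (adjusted p = 0.0310, edgeR quasi-likelihood test). With the depth set as a term of the fit 0 targets passed, and 2 regulators rose and 1 fell. In the fits on Mdm2, Cdkn1a, Bbc3, Ccng1 and Sesn1, 0 genes of either list passed with edgeR or with DESeq2. At an unadjusted p under 0.05 edgeR counted 4 genes of both lists together for Mdm2, 2 for Cdkn1a, 2 for Bbc3, 5 for Ccng1 and 5 for Sesn1, out of 17 regulators and 33 targets. Over all genes tested at that threshold the counts were 1214 of 11920, 407 of 12026, 619 of 11872, 1992 of 12026 and 870 of 11963 in the same order.

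The p53 genes were set beside marker scores, each the mean z score of a list of marker genes. The neuron markers did not vary in the same proportion. Gad1 ran from 2332 to 3303 normalized counts and Gad2, a marker of the same inhibitory neurons, from 96.3 to 487.4, while Snap25 ran from 19462 to 28230 and Map2 from 388.4 to 3799. The mean of Snap25 was higher in the libraries from 32 (25634 against 23929) and that of Map2 lower (1696 against 2066), so the score is given as a score and not as a share of neurons. Of the p53 genes, 3 moved with the neuron score, built from 8 markers, all detected in every library, whose summed level ran from 39466 to 58041 normalized counts. Mdm4 rose with it by 0.36 on the log2 scale per SD (SE 0.11, adjusted p = 0.0106), Bax fell by 0.11 (SE 0.027, adjusted p = 0.0020) and Gadd45a fell by 0.16 (SE 0.043, adjusted p = 0.0062, edgeR quasi-likelihood test). These were 3 of 8 genes against 33.5% of all genes, a share close to the background. Without libraries 12 and 20 Mdm4 no longer passed (adjusted p = 0.0544), whereas Bax and Gadd45a did. In rank terms Bax had rho = -0.698 with the score (permutation p = 9.0e-05) and r = -0.627 (permutation p = 0.00026), and -0.738 and -0.464 in the sets up to 31 and from 32. Gadd45a had rho = -0.417 (permutation p = 0.0317) and r = -0.555 (permutation p = 0.0025), with -0.488 and 0.036 in those sets, and Mdm4 rho = 0.438 (permutation p = 0.0237) and r = 0.451 (permutation p = 0.0163), with 0.674 and 0.200. With the 2 rats of most extreme score left out, r was -0.712 for Bax, -0.245 for Gadd45a and 0.453 for Mdm4, so that of Gadd45a rested largely on those rats. Of the wider lists, 3 regulators rose and 6 fell with the score, and 5 targets rose and 8 fell. Among them Atm rose by 0.27 per SD (adjusted p = 3.7e-04) and Numb by 0.15, while Rpl5 fell by 0.12 and Rpl11 by 0.21. Of the targets Dram1 fell by 0.40, Phlda3 by 0.23 and Rps27l by 0.19 (edgeR quasi-likelihood test). The part of the neuron score in the relations of Mdm4, Bax and Gadd45a was not tested.

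**Figure D5:**
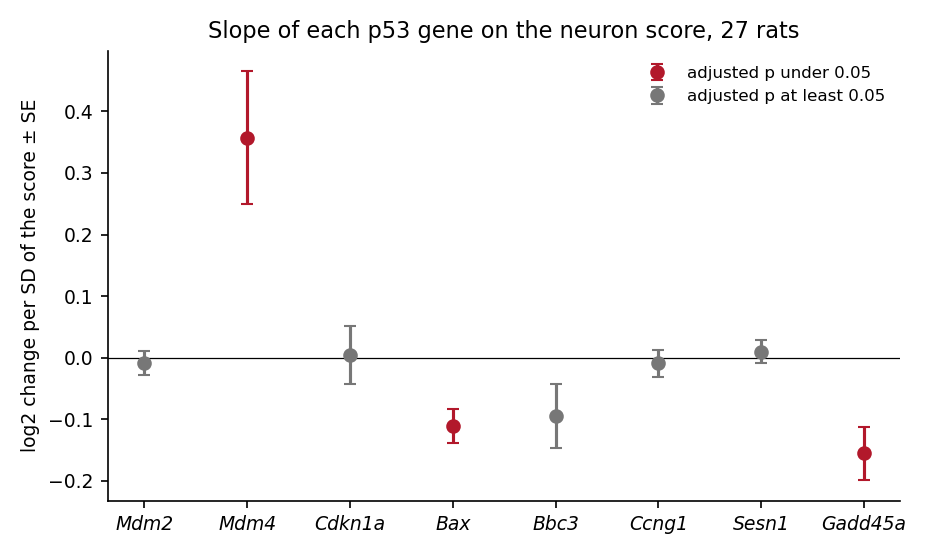
Slope of each p53 gene on the neuron score, in log2 units per SD of the score with its SE, over 27 rats, with adjusted p under 0.05 in red. Mdm4 is at 0.36, Bax at -0.11 and Gadd45a at -0.16, and the other 5 genes do not pass.

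With the other scores, 0 of the 8 genes passed by edgeR and 0 by DESeq2. The share of all genes that passed was 1.41% for oligodendrocytes, 1.56% for astrocytes, 0.649% for microglia, 0.141% for endothelium, 2.48% for meningeal fibroblasts, 0.0585% for immediate early genes, which mark recent neuronal activity, and 0.343% for glucocorticoid responsive genes. At an unadjusted p under 0.05 edgeR counted 2 of these 56 relations, a slope of 0.11 for Gadd45a on the oligodendrocyte score (unadjusted p = 0.0305) and one of 0.11 for Bbc3 on the glucocorticoid score (unadjusted p = 0.0348). Over all genes that threshold was met by 1365 of 12018 with the oligodendrocyte score and 660 of 11956 with the glucocorticoid score. Mdm2 had rho = 0.402 (permutation p = 0.0384) and r = 0.415 (permutation p = 0.0314) with the oligodendrocyte score, with rho = 0.456 and 0.409 in the sets up to 31 and from 32 and r = 0.345 without the 2 rats of most extreme score, and did not pass in the fit (adjusted p = 0.504, edgeR quasi-likelihood test). Of the further targets, Btg2 (0.29 per SD, adjusted p = 2.2e-05) and Gadd45g (0.29, adjusted p = 0.0058) rose with the immediate early genes and Ddit4 rose with the glucocorticoid genes (0.12, adjusted p = 0.0371, edgeR quasi-likelihood test). The call of Ddit4 was lost with the depth set as a term.

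Between the depth sets, 0 of the 8 genes passed with edgeR and 0 with DESeq2, against 18% of all genes (2112 of 11716, and 2360 with DESeq2). The only one with an unadjusted p under 0.05 was Gadd45a, at 123 ± 23.6 normalized counts (SD, n = 16) in the libraries up to 31 and 104 ± 15.2 (SD, n = 11) in those from 32, a log2 difference of -0.24 (SE 0.097, unadjusted p = 0.0202, adjusted p = 0.0865, edgeR quasi-likelihood test). It passed without library 12 (adjusted p = 0.0400). Mdm4 was at 106 ± 48.5 and 78.7 ± 30.8 (log2 difference -0.44, SE 0.22, adjusted p = 0.174, edgeR quasi-likelihood test). The values of both genes overlapped between the sets. Of the regulators 2 were higher from 32, Wrap53 (0.20) among them, and 2 were lower, Rpl11 (-0.37) and Cop1 (-0.10). Without libraries 12 and 20, 0 regulators were higher and 2 were lower. Of the targets 0 were higher and 5 were lower, among them Mcl1 (-0.31), Bcl2l1 (-0.22), Phlda3 (-0.41) and Rps27l (-0.29). DESeq2 counted 8 lower targets.

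Rn18s, a sign of ribosomal RNA left in the libraries, moved with Mdm4 in r (0.475, permutation p = 0.0112). It did so less in rank (rho = 0.338, permutation p = 0.0854), and r was 0.194 without the 2 rats of most extreme Rn18s. The rho of Rn18s with Mdm4 was 0.229 in the libraries up to 31, 0.573 in those from 32 and 0.195 without libraries 12 and 20. Library 47, in the set from 32, had the next-highest Rn18s after those libraries (7140 counts). Over all 27 libraries, the rho of Rn18s with the other 7 genes ran from -0.168 for Sesn1 to 0.195 for Mdm2. The part of Rn18s in the spread of Mdm4 was not tested.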

How the data were processed

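RNASeq of homogenised mPFC was done on 27 rats, each giving 1 library. The authors deposited a table of raw counts (reads per gene), of which all columns were used. The submitters' processing notes name Trimmomatic, STAR and HTSeq, and the genome build, strandedness and counting options are not given in the sources used here. Labels and methods differ in the library kit and the thickness of the section. Libraries held 4907255 to 12771309 counts. Gene IDs were named from RefSeq (GRCr8), which gave a symbol to 27825 of 36865 rows.

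Counts were divided by DESeq2 (version 1.42.0) size factors and taken as log2(normalized count + 1), which understates changes of low genes. Spread was tested by a chi-square test over genes averaging 10 or more counts. The counts were fitted with edgeR (version 4.0.16) quasi-likelihood tests after filterByExpr and TMM, with each p53 gene, each marker score or the depth set as the covariate, and adjusted by Benjamini-Hochberg over all genes tested at 0.05. Scores and covariates come from the same libraries. Correlations used 100000 permutations with scipy (version 1.17.1), and 28 pairs were computed. Alternatives were DESeq2's Wald test and size factors, total counts, a pseudocount of 0.1, no filter, the depth set as a term, and leaving out libraries 12 and 20, together or, chosen after seeing the data, singly. The scripts were tested on simulated data. Named genes were the 8 p53 genes, the 3 genes of highest rho with each among genes with at least 50 normalized counts, the 3 highest of each pathway list and up to 4 called per list and comparison, and some genes that this rule names are not reported here. Members and lists were chosen with earlier results of these data known. Reads carry no molecular identifiers, so counting noise covers counting error only. With 1 library per rat, differences between rats cannot be told apart from differences between libraries. The p-values of the fits and correlations test association across these rats, and those of the chi-square test concern departure from Poisson counting.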

Additional observations from a re-analysis of the deposited data

How the results depend on the processing

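The counts of p53 genes passing with the neuron score (3, or 2 without libraries 12 and 20), with the other scores and in spread beyond counting stayed within 1.5 times under the alternatives run. Between the depth sets 1 gene, Gadd45a, passed without libraries 12 and 20 and without library 12, against 0 in the main analysis. Of the ordered pairs, 1 passed in the main analysis, with DESeq2 and with the depth set as a term, and 0 with median-of-ratios size factors, with no filter on low counts, without libraries 12 and 20, without library 12 and without library 20. The rho of Cdkn1a and Ccng1 turned to -0.0684 with the depth set regressed out, and that of Mdm2 and Sesn1 was 0.36 (permutation p = 0.0663) with total counts. That of Bax and Gadd45a was 0.389 with the depth set regressed out (unadjusted permutation p = 0.0463) and 0.391 with total counts (unadjusted permutation p = 0.044), and that of Ccng1 and Gadd45a was 0.432 with the depth set regressed out (unadjusted permutation p = 0.0251). The genes that followed Mdm4 fell from 1128 to 392 without libraries 12 and 20, those that followed Bax from 2498 to 1002, and those that followed Ccng1 from 13 to 3, 2 without library 12 and 3 without library 20. The cause was not tested. No paired analysis was possible because all rats form 1 group. Counting noise was the largest share of the variance in Mdm2 and Cdkn1a, at 77.3% and 76.6%. That share depends on the spread of a gene as well as on depth. Bax, with a mean of 371 normalized counts against 378 for Mdm2, was at 20.3%.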
